A study of Mus musculus with 72 samples.

Results

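The 9 genes described here are the core of the Hedgehog pathway: the ligands Shh, Ihh and Dhh, the receptor Ptch1, the ligand-binding antagonist Hhip, the signal transducer Smo and the transcription factors Gli1, Gli2 and Gli3. They were taken by name, with counts from whichever transcript of a gene held the most reads in all, and all 9 were found among the 45407 genes of the series and passed the filter that left 18279 genes for testing. In this pathway a secreted ligand binds Ptch1 and thereby releases Smo, which acts at the primary cilium to turn the Gli proteins into activators. Without ligand, Gli3 in particular is cleaved to a repressor, while Gli1 acts only as an activator. Ptch1, Hhip and Gli1 are themselves widely used target genes of the pathway. In the embryo, Shh is secreted by the node, the notochord and the floor plate and patterns the ventral neural tube.

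Polyadenylated RNA came from Nup133 wild-type and knockout mouse embryonic stem cells, collected as stem cells (day 0), after 2 days in N2B27 medium without LIF (day 2), and after a further 24 h with 1 µM all-trans retinoic acid (day 3). Nup133 is a scaffold subunit of the nuclear pore, and the design asks how its loss alters transcription in pluripotent cells and on the way to neuroectoderm. The control samples were 2 biological replicates of line HM1 (Nup133+/+, 40 chromosomes, XY) and the blastocyst-derived line 1A4 (Nup133+/+, Sox1gfp/+, 40 chromosomes, XY). The knockout samples were lines 14 and 19, CRISPR/Cas9-edited Nup133-/- derivatives of HM1 labelled 40 chromosomes XY (for line 19 as likely), and the blastocyst-derived line 319 (Nup133merm/merm, Sox1gfp/+). Line 319 is labelled with 42 chromosomes, XX, and extra copies of chromosomes 8 and 12, and Hhip lies on chromosome 8. Lines 1A4 and 319 both carry gfp at 1 Sox1 allele, and all lines had been grown on mouse embryonic fibroblasts that were removed by plating before day 0. There were thus 3 samples for either genotype at each day, 6 groups in all, with every knockout sample a different line and each line followed over the 3 days.

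A sample held between 16.5 M and 54.4 M gene counts. Nup133 lay between 14.3 and 37.1 CPM (a gene's counts relative to the sample's total, scaled between samples) in the knockout samples and between 180 and 323 CPM in the controls. Pou5f1, the pluripotency factor Oct4, averaged 1055 CPM in day 0 controls and 172 CPM in day 3 controls, while Sox1, a marker of neural progenitors, went from 0.997 to 60.8 CPM. The shallowest library, line 19 at day 2, stood apart: leaving it out raised the genes called between the genotypes at day 3 from 947 to 3007. Values without it are given where it changes a call or a direction of the 9 genes between the genotypes. Day 3 counts of called genes without it are to be read beside 3007 genes. The shares of all genes given below are those of the fit over all samples. A gene is called where its adjusted p is below 0.05 in edgeR's quasi-likelihood test over all genes, and log2 fold changes are given with their SE. Between the genotypes, 1945, 3738 and 4005 of 18279 genes had an unadjusted p below 0.05 in that test at days 0, 2 and 3.

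Shh had by far the widest genotype difference of the 9 genes. Shh (ENSMUSG00000002633; chromosome 5, 28456815 to 28467256, minus strand, 3 exons, GRCm38) encodes Sonic hedgehog, the ligand of the axial midline. In day 0 controls it was near the limit of detection, with 4 and 10 raw counts in HM1 and 2 in line 1A4, which correspond to 0.104, 0.240 and 0.0798 CPM. At day 2 the controls held 98, 102 and 37 counts (2.20, 2.37 and 0.747 CPM), and at day 3 they held 59, 62 and 31 counts (1.59, 2.07 and 0.807 CPM). Shh was thus switched on in every control series by day 2, to a lower level in line 1A4 than in HM1. The rise from day 0 to day 2 was 3.56 ± 0.48 on the log2 scale (edgeR adjusted p = 5.3e-05), and the step from day 2 to day 3 was -0.20 ± 0.39 (adjusted p = 0.77).

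The knockout lines did not show this rise at day 2. Lines 14, 19 and 319 held 1, 0 and 0 Shh counts at day 0, and 2, 0 and 0 counts at day 2. At day 3 they held 17, 3 and 5 counts, or 0.281, 0.103 and 0.129 CPM. No knockout sample reached the lowest control sample of its day. As the limit that a count of 0 allows, 3 counts were assigned to each knockout sample, although line 14 held 1 and 2. On group means, Shh was then at least 12.9-fold lower at day 2 and at least 1.81-fold lower at day 0. These folds set no bound for a single line. The edgeR test called the difference at day 2 (adjusted p = 0.00037) and not at day 0 (adjusted p = 0.070). At day 3 the difference was -2.99 ± 0.46 on the log2 scale (adjusted p = 0.0032), with lines 14, 19 and 319 at 0.154, 0.0563 and 0.160 times the controls of their own background.

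From day 2 to day 3 Shh was called higher in the knockout (adjusted p = 0.0084), by at least 1.24-fold with the 3-count limit at day 2. The day 3 mean of 0.171 ± 0.096 CPM (SD, n = 3) was close to the day 0 control mean of 0.141 ± 0.087 CPM and under the day 2 control mean of 1.77 ± 0.89 CPM. The change of the genotype difference from day 2 to day 3 was not called (adjusted p = 0.34). Without line 19 at day 2, the day 0 difference was also called (adjusted p = 0.044), and those at days 2 and 3 had adjusted p = 0.0011 in both cases. The day 2 call was lost when only day 2 samples entered the fit (adjusted p = 0.19), where no gene of 16742 tested was called, and the day 3 call when HM1 replicate 2 was left out (adjusted p = 0.066). Shh overlaps the opposite-strand genes 9530036O11Rik and Gm26894, which held 11 and 17 counts over all samples against 433 for Shh.

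**Figure D1:**
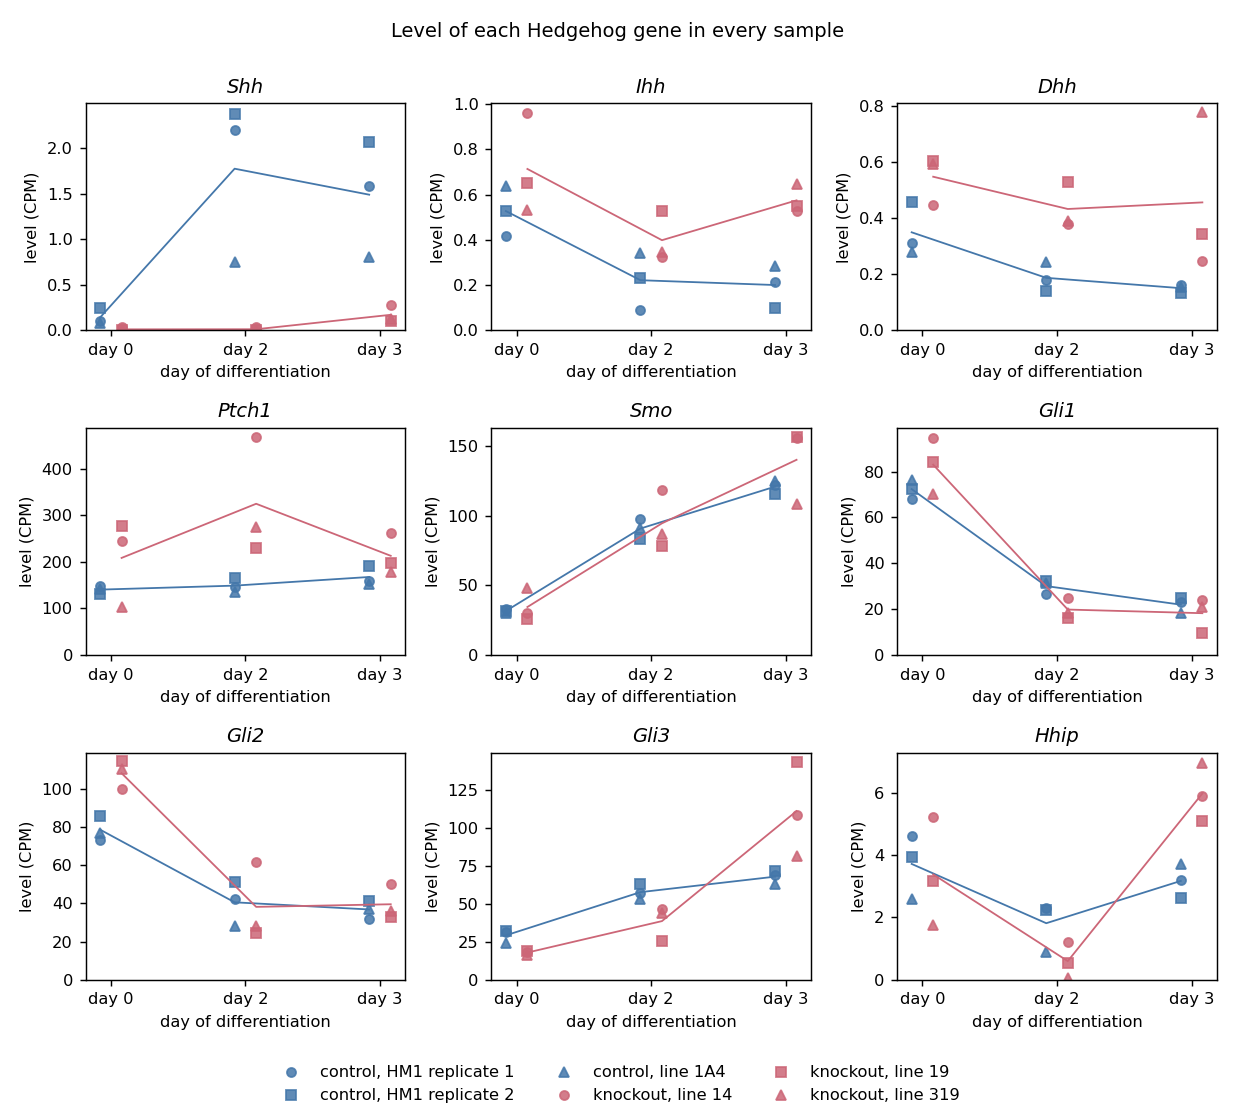
Level in CPM of each of the 9 genes in every sample at days 0, 2 and 3 (points; blue controls, red knockout lines, with marker shape giving the series), and group means joined by lines. Shh is near 0 in all knockout samples at days 0 and 2 and at 0.103 to 0.281 CPM at day 3, while the controls lie at 0.747 to 2.37 CPM at day 2. Each panel has its own linear axis from 0.

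Some markers of the cells that secrete Shh in the embryo also differed between the genotypes. Of 11 axial mesendoderm genes, those of the node, notochord and their precursors, 5 were called lower in the knockout at day 0 and 5 at day 2, beside 0.788% and 0.963% of all genes called lower. They included T (brachyury, the notochord factor), at 40.2 ± 17.7 CPM in controls and 3.06 ± 1.41 CPM in the knockout at day 0, and at 10.3 ± 4.7 and 1.18 ± 0.82 CPM at day 2. Lhx1, a LIM homeobox factor of the head organizer, was at 5.13 ± 0.45 CPM in controls and 0.254 ± 0.239 CPM in the knockout at day 2. The other genes named by the same rule were Mixl1 and Foxa2 at day 0 (log2 fold change -4.21 ± 0.40 and -1.99 ± 0.39) and Cer1 and Nog at day 2 (-5.46 ± 0.51 and -3.99 ± 0.79). Called or not, 1 of the 11 was higher and 10 lower at day 0, and 2 were higher and 9 lower at day 2. None was called higher at these days. Foxj1 of this list was at 6.65 ± 1.20 CPM in controls and 11.9 ± 9.2 CPM in the knockout at day 2, with 22.4 CPM in its highest sample. The summed level of the list was 61.8 to 124 CPM in controls and 20.1 to 23.1 CPM in the knockout at day 0, and 35.0 to 53.9 against 19.5 to 52.9 CPM at day 2. The highest of these day 2 knockout values belonged to line 319, which held no Shh count. In the knockout Cer1 was at 0 counts in every day 0 sample. At day 3 the list summed to 29.2 to 38.1 CPM in controls and 41.0 to 94.8 CPM in the knockout, and Lhx1 was called higher (2.24 ± 0.46), while Shh was lower. Beside Lhx1, 2.74% of all genes were called higher. Lhx1 alone was at 9.02 ± 5.62 CPM in controls and 42.3 ± 22.8 CPM in the knockout. Of the 11 genes, 6 were higher and 5 lower at that day, with T and Foxa2 among the lower. Within controls the list did not follow Shh over the days. Its median sum there fell from 91.8 CPM at day 0 to 47.4 and 29.3 CPM at days 2 and 3. Mean Shh in the same samples was 0.141, 1.77 and 1.49 CPM. Without line 19 at day 2, when more of all genes were called, edgeR called 3 of the 11 genes at day 3, as did DESeq2. The part of such cells in the Shh difference was not tested, and in bulk RNA fewer cells of a type and less RNA per cell cannot be told apart. The axial list was chosen with earlier results of these data known, so its counts beside all genes are a description, not a test.

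Floor plate markers were counted as well. Of 5 listed, 3 were tested: Foxa2, the guidance cue gene Ntn1 and Spon1. Foxa2 was called lower at day 0, and no marker was called between the genotypes at day 2 or 3 by edgeR. At an unadjusted p below 0.05 there were 2 at day 2 and 0 at day 3, beside 3738 and 4005 of all genes, and DESeq2 called 1 and 0. With line 19 at day 2 left out, edgeR called 0 and 1 of the 3. Ferd3l was at 0 counts in every sample. At day 3, Foxa2 was at 8.12 ± 0.70 CPM in controls and 6.24 ± 1.31 CPM in the knockout.

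Ihh and Dhh, the ligands known from cartilage and gut and from testis and nerve sheath, stayed under 1 CPM throughout. Ihh (ENSMUSG00000006538; chromosome 1, 74945315 to 74951672, minus strand, 3 exons) held 16, 22 and 16 counts in day 0 controls, 4, 10 and 17 at day 2, and 8, 3 and 11 at day 3, in the order HM1 replicate 1, HM1 replicate 2, line 1A4. The knockout lines 14, 19 and 319 held 28, 28 and 26 counts at day 0, 17, 7 and 8 at day 2, and 32, 16 and 25 at day 3. In CPM, the day 3 samples stood at 0.215, 0.100 and 0.286 in controls and at 0.529, 0.549 and 0.647 in the knockout, without overlap. The log2 difference at day 3 was 1.49 ± 0.45 and was not called (adjusted p = 0.066; 0.033 without line 19 at day 2). The fall of Ihh from day 0 to day 2 in controls was -1.25 ± 0.44 (adjusted p = 0.038) and was lost without any of the 3 control series (adjusted p from 0.050 to 0.22) or without line 14 (0.054).

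Dhh (ENSMUSG00000023000; chromosome 15, 98891152 to 98898540, minus strand, 3 exons) held 4 to 19 counts per control sample and 7 to 30 per knockout sample. At day 3 its levels were 0.161, 0.134 and 0.156 CPM in controls and 0.248, 0.343 and 0.776 CPM in lines 14, 19 and 319. These did not overlap, yet the log2 difference of 1.51 ± 0.44 was not called (adjusted p = 0.057; 0.031 without line 19 at day 2). Dhh shares exons on the same strand with Rhebl1, which held 20442 counts over all samples against 239 for Dhh, so its level is uncertain. Per kilobase, the mean ligand levels were in the order Ihh, Dhh, Shh in the knockout at every day, and Shh was first in controls at days 2 and 3. Per kilobase of transcript, the day 2 controls were at 0.623 ± 0.313 CPM for Shh, 0.0899 ± 0.0515 for Ihh and 0.0441 ± 0.0122 for Dhh. In day 2 knockout samples these were 0.00445 ± 0.00771, 0.162 ± 0.045 and 0.102 ± 0.020.

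Ptch1, the receptor that holds Smo inactive until ligand binds, was higher in the knockout at day 2. Per kilobase of transcript it was then at 42.0 ± 16.4 CPM in the knockout, the highest mean of the 9 genes, and at 19.3 ± 1.9 CPM in controls, where Smo had 24.1 ± 1.9 CPM. Ptch1 (ENSMUSG00000021466; chromosome 13, 63508328 to 63573598, minus strand) is represented by ENSMUST00000021921, with 23 exons. Control levels were 148, 131 and 143 CPM at day 0, 146, 165 and 136 CPM at day 2, and 159, 190 and 153 CPM at day 3. Lines 14, 19 and 319 stood at 245, 278 and 102 CPM at day 0, at 469, 230 and 275 CPM at day 2, and at 263, 198 and 178 CPM at day 3. The controls hardly moved over the days, whereas all 3 knockout lines lay above every control at day 2. Line 14 was highest at days 2 and 3, and line 319 was under the controls at day 0.

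The day 2 difference was 1.12 ± 0.27 on the log2 scale (edgeR adjusted p = 0.049), against 0.50 ± 0.27 at day 0 (adjusted p = 0.56) and 0.34 ± 0.27 at day 3 (adjusted p = 0.50). Shh and Ptch1 were the 2 of 9 genes called at day 2, when 1.6% of all genes were called. By the representative transcript, the receptor's message was thus higher at that day, and that of the ligand lower, in the same 3 lines. For line 19 this did not hold in the longest Ptch1 transcript, at 0.525 times the control mean. The Ptch1 call lay at the threshold: without line 14 the difference was 0.82 (adjusted p = 0.10), and without HM1 replicate 1, HM1 replicate 2 or line 1A4 the adjusted p was 0.34, 0.30 or 0.11. Without line 19 at day 2 it was 1.35 ± 0.24 (adjusted p = 0.012).

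The transcripts of Ptch1 gave different values for 1 line. Of 7 transcripts, the representative was 3.15, 1.54 and 1.85 times the control mean in lines 14, 19 and 319 at day 2. The longest transcript, ENSMUST00000195258 (10383 bases), was 2.88, 0.525 and 1.77 times the control mean, so that line 19 lay below the controls there. Its mean went from 70.6 ± 7.8 to 122 ± 83 CPM, a log2 difference of 0.81 that was not called (adjusted p = 0.27). The 3 short transcripts, of 809 to 1123 bases, likewise put line 19 at 0.528 to 0.550 times the control mean at day 2. At days 0 and 3, line 19 lay above the control mean in all 7 transcripts, for example at 1.98 and 1.18 times in the representative and at 2.04 and 1.09 times in the longest.

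Smo, the seven-pass membrane protein that passes the signal on, rose with differentiation in both genotypes. Smo (ENSMUSG00000001761; chromosome 6, 29735503 to 29761365, plus strand, 12 exons) was at 33.3, 31.4 and 30.2 CPM in day 0 controls, 97.9, 83.6 and 91.2 CPM at day 2, and 122, 116 and 125 CPM at day 3. The knockout lines were at 30.0, 25.7 and 47.9 CPM, then at 119, 78.1 and 87.2 CPM, and at day 3 at 156, 157 and 109 CPM. The 2 genotypes overlapped at every day. The rise to day 2 was 1.52 ± 0.22 in controls (adjusted p = 0.0001) and 1.46 ± 0.22 in the knockout (adjusted p = 0.00013), and the 2 rises differed by -0.06 ± 0.31 (adjusted p = 0.97). Genotype differences of Smo were 0.12 ± 0.22, 0.06 ± 0.22 and 0.22 ± 0.22 at days 0, 2 and 3 (adjusted p from 0.61 to 0.95). The day 0 value turned to -0.21 in the HM1-derived lines alone and the day 2 value to -0.15 without line 14.

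Hhip, which binds Hedgehog ligands at the surface without passing a signal on, was low and its knockout level moved down and up again over the days. Hhip (ENSMUSG00000064325; chromosome 8, 79965851 to 80058006, minus strand, 13 exons) was at 4.60, 3.94 and 2.59 CPM in day 0 controls, 2.31, 2.23 and 0.889 CPM at day 2, and 3.20, 2.60 and 3.70 CPM at day 3. Lines 14, 19 and 319 stood at 5.21, 3.16 and 1.75 CPM, then at 1.22, 0.528 and 0.0432 CPM, and at day 3 at 5.90, 5.08 and 6.93 CPM. The lowest of these values is 1 raw count in line 319, the line with an extra chromosome 8. The mean was lowest at day 2 in both genotypes.

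In the knockout the fall of Hhip to day 2 was -2.39 ± 0.55 (adjusted p = 0.0036) and the return to day 3 was 3.36 ± 0.57 (adjusted p = 0.00046). The same steps in controls, -1.08 ± 0.50 and 0.96 ± 0.50, were not called (adjusted p = 0.11 and 0.20), and the second was 0.36 in the HM1-derived lines alone. The 2 genotypes were not shown to differ in these steps, since the changes of the genotype difference had adjusted p = 0.75 and 0.39. Between the genotypes Hhip differed by -1.49 ± 0.55 at day 2 (adjusted p = 0.15) and by 0.91 ± 0.49 at day 3 (adjusted p = 0.29). The day 2 difference was called by DESeq2 (-1.55, adjusted p = 0.042) and by edgeR without line 14 (-2.78, adjusted p = 0.048). At day 3 all 3 knockout samples lay above all controls, at 2.03, 1.75 and 1.88 times the controls of their own background.

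The Gli factors exchanged places during differentiation. Gli1 (ENSMUSG00000025407; chromosome 10, 127329882 to 127341974, minus strand, 13 exons), the activator and target gene, was at 68.1, 72.4 and 76.5 CPM in day 0 controls, 26.5, 32.1 and 31.6 CPM at day 2, and 23.004, 24.7 and 18.2 CPM at day 3. Knockout lines were at 94.7, 84.0 and 70.2 CPM, then at 24.7, 16.4 and 18.4 CPM, and at day 3 at 23.9, 9.75 and 21.1 CPM. In controls Gli1 thus fell over the same step in which Shh rose, and it fell in the knockout as well. Its fall to day 2 was -1.27 ± 0.26 in controls (adjusted p = 0.0015) and -2.06 ± 0.27 in the knockout (adjusted p = 3.6e-05). All knockout samples lay under all controls at day 2, but the difference of -0.60 ± 0.26 was not called (adjusted p = 0.21; -0.47 without line 19). At day 3 the difference was -0.26 ± 0.26 (adjusted p = 0.61), and 0.06 without line 19, the lowest sample. Gli1 overlaps exons of Arhgap9 on the opposite strand, which held 2126 counts over all samples against 28276 for Gli1.

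Gli2 (ENSMUSG00000048402; chromosome 1, 118834132 to 119053619, minus strand, 14 exons), the main activator of the first response, fell in the same way. Its levels were 73.4, 85.7 and 76.9 CPM in day 0 controls, 42.2, 51.1 and 28.4 CPM at day 2, and 32.0, 41.5 and 37.0 CPM at day 3. Lines 14, 19 and 319 were at 99.98, 114 and 110 CPM, then at 61.9, 24.6 and 28.0 CPM, and at day 3 at 50.1, 32.7 and 35.8 CPM. At day 0 the knockout lines lay above all controls, with a difference of 0.46 ± 0.28 that was not called (adjusted p = 0.63). The fall to day 2 was -0.98 ± 0.28 in controls (adjusted p = 0.013) and -1.52 ± 0.28 in the knockout (adjusted p = 0.00069). The control fall was not called without any 1 of the control series (adjusted p from 0.058 to 0.14). Genotype differences at days 2 and 3, -0.08 ± 0.28 and 0.10 ± 0.28, changed sign when single series were left out, and the day 2 value was 0.18 without line 19 at that day.

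Gli3 (ENSMUSG00000021318; chromosome 13, 15463235 to 15730026, plus strand, 15 exons), the main source of Gli repressor, rose instead. Control samples were at 31.4, 32.2 and 23.9 CPM at day 0, 57.0, 62.8 and 52.9 CPM at day 2, and 68.9, 71.6 and 62.7 CPM at day 3. The knockout lines began lower, at 18.4, 18.8 and 16.3 CPM, stood at 46.5, 25.4 and 43.7 CPM at day 2, and passed the controls at day 3 with 108, 143 and 81.5 CPM. The groups did not overlap at any day, with the knockout below at days 0 and 2 and above at day 3. Against the controls of their own background, lines 14, 19 and 319 stood at 0.580, 0.590 and 0.683 times at day 0 and at 1.54, 2.03 and 1.30 times at day 3.

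No single-day difference of Gli3 was called in the edgeR fit over all samples. DESeq2 called those at day 0 (-0.70, adjusted p = 0.05 after rounding) and at day 3 (0.71, adjusted p = 0.018). The log2 differences were -0.70 ± 0.21 at day 0 (edgeR adjusted p = 0.15), -0.56 ± 0.21 at day 2 (0.15; -0.30 without line 19) and 0.70 ± 0.21 at day 3 (0.062). The change of the difference from day 0 to day 3 was 1.40 ± 0.29, with an adjusted p of 0.051, and it was between 1.21 and 1.59 in all 17 alternative analyses, with adjusted p from 0.0012 to 0.54. Without line 19 at day 2, the differences at days 0 and 3 were -0.70 ± 0.12 and 0.69 ± 0.12 and both were called (adjusted p = 0.010 and 0.0037), as was their change (0.0018). The rise of Gli3 within the knockout was called in both steps, 1.13 ± 0.21 to day 2 and 1.49 ± 0.21 to day 3 (adjusted p = 0.0007 and 0.00011). In controls it was called to day 2 (0.99 ± 0.21, adjusted p = 0.0019) and not from day 2 to day 3 (0.24 ± 0.21, adjusted p = 0.46). Gli3 overlaps the opposite-strand gene Gm6556, with 149 counts against 37918.

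**Figure D2:**
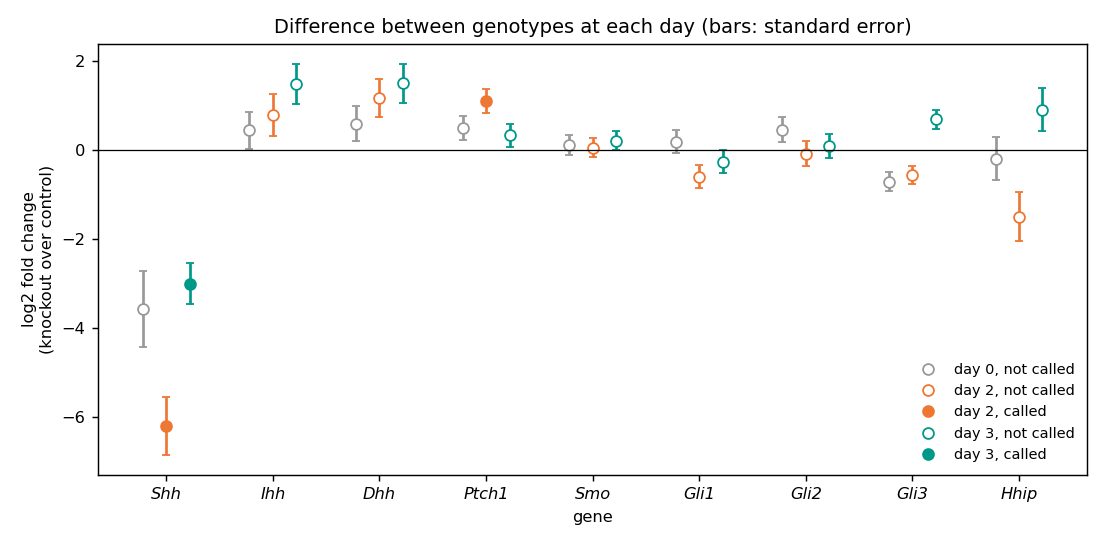
Log2 fold change of the knockout over the control for each gene at days 0, 2 and 3, with bars for the SE (3 samples a group); filled points passed an adjusted p below 0.05 in edgeR. Only Shh at days 2 and 3 and Ptch1 at day 2 are filled, and Gli3 lies below 0 at days 0 and 2 and above 0 at day 3. The fitted Shh values at days 0 and 2 rest on 0 to 2 counts per knockout sample, for which the text gives lower bounds.

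Per kilobase of transcript, the make-up of Gli message moved from Gli1 to Gli3. Gli3 made up 12.1%, 11.4% and 8.75% of the summed Gli level in day 0 controls, 35.1%, 33.0% and 34.9% at day 2, and 44.6%, 41.6% and 43.3% at day 3. Lines 14, 19 and 319 had 5.55%, 5.71% and 5.56% at day 0, 26.9%, 28.7% and 37.9% at day 2, and 49.6%, 70.4% and 48.5% at day 3. The Gli3 share of every knockout line was below the controls at day 0 and above them at day 3, and the 2 genotypes overlapped at day 2. Gli1 went the other way, from 53.6% ± 2.6 to 28.0% ± 2.4 of the sum in controls and from 52.4% ± 4.7 to 19.0% ± 8.2 in the knockout (SD, n = 3). The summed level per kilobase fell from 33.2 ± 1.5 to 19.3 ± 1.7 CPM in controls and was 38.9 ± 2.6, 15.4 ± 5.2 and 24.0 ± 3.1 CPM in the knockout at days 0, 2 and 3. These shares are RNA levels and say nothing of how much Gli3 protein was full-length or cleaved.

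**Figure D3:**
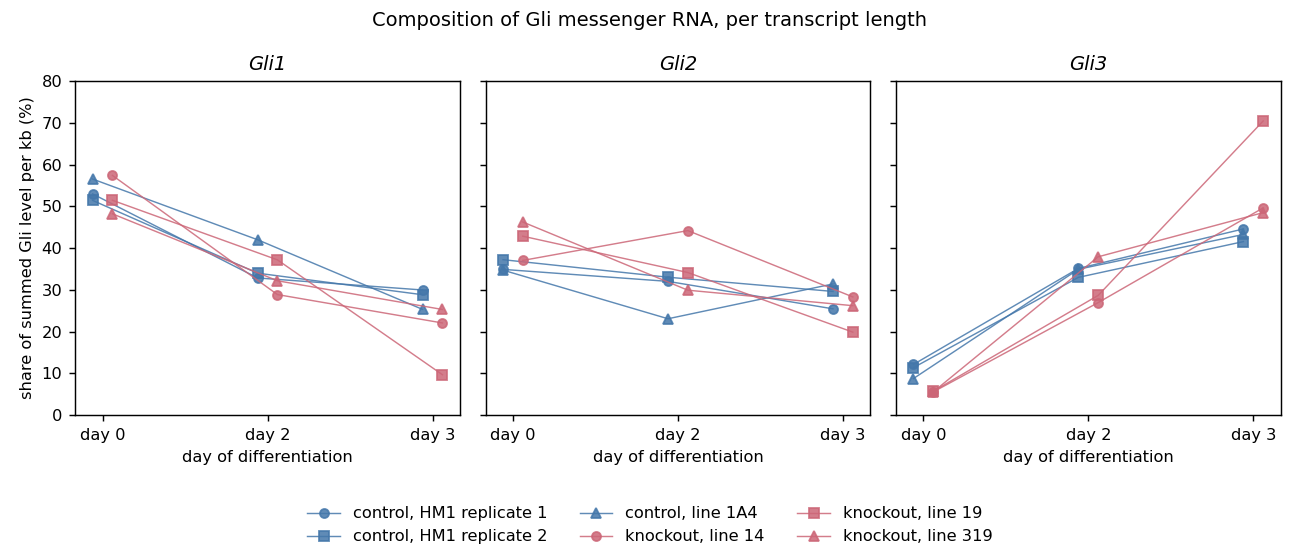
Share of Gli1, Gli2 and Gli3 in their summed level per kilobase of transcript (%, vertical axis) by day, 1 line per series (blue controls, red knockout lines). Gli3 starts at 5.55% to 5.71% in the knockout and 8.75% to 12.1% in controls, and reaches 48.5% to 70.4% and 41.6% to 44.6% at day 3, with line 19 highest.

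The start regions of Ptch1, Gli2 and Gli3 are shown because these genes moved differently from one another over the same days. Each is the 250 bases upstream of the RefSeq transcription start (GRCm38.p6), written 5′ to 3′ on the gene's strand, with the GC box GGGCGG or its reverse complement CCGCCC in capitals. They lie at chr13:63565736-63565985 (Ptch1, minus strand), chr1:119053620-119053869 (Gli2, minus strand) and chr13:15463473-15463722 (Gli3, plus strand). The RefSeq start of Gli3 lies 257 bases upstream of the representative transcript used for counting, and the other 2 coincide with theirs.
Ptch1: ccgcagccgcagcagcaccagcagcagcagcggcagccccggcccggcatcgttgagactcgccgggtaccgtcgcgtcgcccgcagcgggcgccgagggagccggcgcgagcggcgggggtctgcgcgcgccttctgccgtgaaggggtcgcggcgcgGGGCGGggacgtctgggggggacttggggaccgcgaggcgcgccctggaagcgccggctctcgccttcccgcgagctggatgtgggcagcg
Gli2: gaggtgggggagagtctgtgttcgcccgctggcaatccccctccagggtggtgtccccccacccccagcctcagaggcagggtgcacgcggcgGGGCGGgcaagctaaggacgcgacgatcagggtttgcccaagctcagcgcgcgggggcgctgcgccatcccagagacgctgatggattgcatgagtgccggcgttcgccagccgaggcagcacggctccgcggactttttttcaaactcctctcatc
Gli3: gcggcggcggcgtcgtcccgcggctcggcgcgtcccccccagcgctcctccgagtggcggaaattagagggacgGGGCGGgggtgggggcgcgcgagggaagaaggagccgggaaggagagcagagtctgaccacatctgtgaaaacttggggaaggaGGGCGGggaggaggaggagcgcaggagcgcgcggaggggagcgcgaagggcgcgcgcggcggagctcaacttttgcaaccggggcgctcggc
Sequences were at hand for 7 of the 9 genes (Ihh, Dhh, Ptch1, Smo, Gli2, Gli3 and Hhip). Motifs were searched on both strands from 250 bases before to 50 bases after the start. The GC box occurred in 6 of the 7 regions, all but that of Smo, and in 35.7% of 32851 RefSeq promoters of the same length. Gli3 had 2, at -176 and -92 from the start, while Ptch1 had 1 at -91 and Gli2 had 1 at -157. The GLI consensus GACCACCCA and its reverse complement TGGGTGGTC, which do not overlap the GC box, occurred in 0 of the 7 and in 0.253% of all promoters. That says only that these exact letters are not within these windows.

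Calls were then counted over the 9 genes. At day 0, none was called between the genotypes by edgeR, beside 0.853% of all genes called, and DESeq2 called 1 (Gli3). At an unadjusted p below 0.05 there were 2, beside 1945 of all genes. At day 2, 2 of 9 were called (Shh and Ptch1), beside 1.6% of all genes. At day 3, 1 of 9 was called (Shh), beside 5.18% of all genes. DESeq2 called 3 at either of these days. An unadjusted p below 0.05 in edgeR's test was reached by 6 at day 2 and 4 at day 3, beside 3738 and 4005 of all genes. From day 0 to day 2, 6 of 9 were called in controls (Shh, Smo and Gli3 higher, Gli1, Gli2 and Ihh lower) beside 35.2% of all genes called, 19.7% higher and 15.5% lower, and 5 of 9 in the knockout (Smo and Gli3 higher, Gli1, Gli2 and Hhip lower) beside 35.9% called, 20.8% higher and 15.1% lower. From day 2 to day 3, none was called in controls by edgeR, DESeq2 or at an unadjusted p below 0.05, beside 21.4% of all genes called, 12.5% higher and 8.92% lower. Over all genes, 6122 had an unadjusted p below 0.05 there. In the knockout 3 of 9 were called higher over that step (Shh, Gli3 and Hhip), beside 33.6% of all genes called and 17.7% called higher. Samples of the 2 genotypes did not overlap for 3 of 9 genes at day 0, 5 at day 2 and 5 at day 3, against 17.8%, 21.7% and 35.2% of all genes tested. Between days 0 and 2 the samples did not overlap for 8 genes in controls and 6 in the knockout, against 61.8% and 34.9% of all genes. Between days 2 and 3 this held for 3 and 4 genes, against 57.4% and 34.8%. The median log2 difference between the genotypes over the 9 genes was 0.19, -0.08 and 0.34 at days 0, 2 and 3, beside 0.01, 0.02 and 0.02 over all genes.

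The change of the genotype difference was called for none of the 9 genes between any 2 days. At an unadjusted p below 0.05 there were 1 from day 0 to day 2, 3 from day 2 to day 3 and 1 from day 0 to day 3, and DESeq2 called 0, 1 and 1, Gli3 in both cases. Over all genes, edgeR called 0.0219%, 0.0383% (0.0274% higher and 0.0109% lower) and 0.427%. An unadjusted p below 0.05 was reached by 1308, 1626 and 1986 of all genes in the same 3 comparisons.

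**Figure D4:**
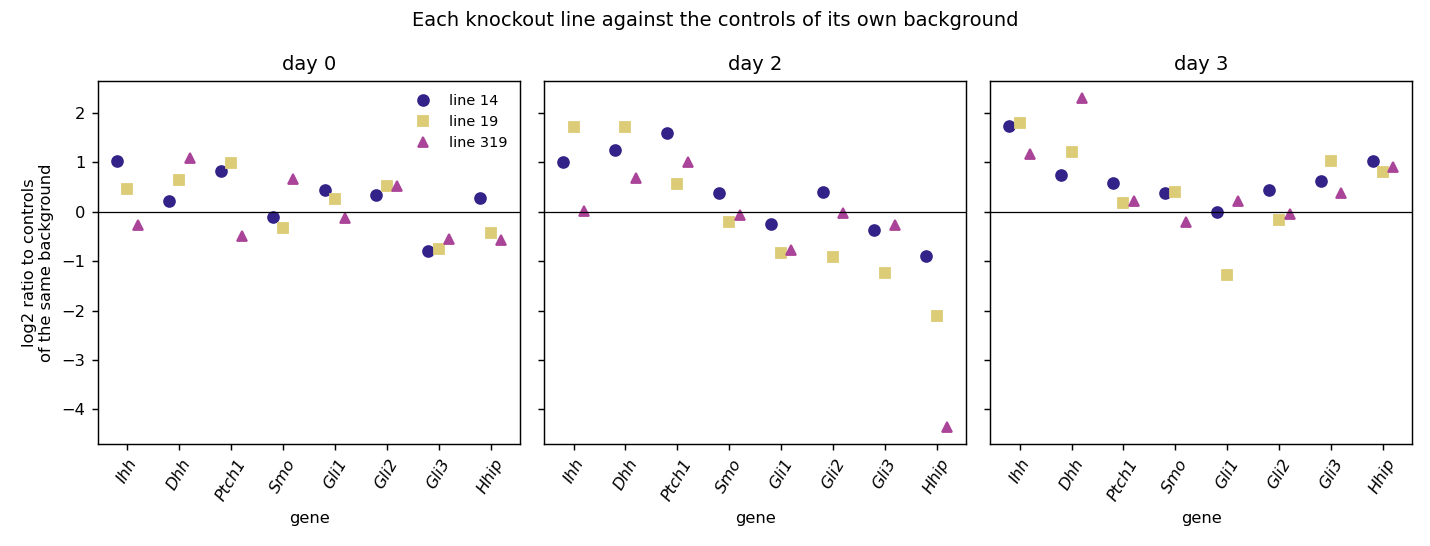
Log2 ratio of each knockout line to the controls of its own background (lines 14 and 19 against the mean of 2 HM1 samples, line 319 against line 1A4) for 8 genes at each day; Shh is left out because 4 of its values are 0. Ptch1, by its representative transcript, lies above 0 in all 3 lines at day 2, from 1.48 to 3.02 times on the linear scale, and Gli3 lies below 0 at day 0 and above 0 at day 3 in all 3.

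The lines differed among themselves most in the genes with the fewest counts and in Ptch1 and Gli1. At day 0, Ptch1 was 1.76 and 1.99 times the HM1 mean in lines 14 and 19 and 0.716 times line 1A4 in line 319. At day 3, Gli1 was 1.00 times its controls in line 14, 0.409 times in line 19 and 1.16 times in line 319. Hhip at day 2 was 0.535, 0.232 and 0.0486 times its controls in lines 14, 19 and 319. Each comparison of line 319 rests on 1 control sample and carries no replicate check.

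The rest of the pathway was examined by function. Of 6 genes for ligand maturation and release, 5 were called higher from day 2 to day 3 in controls and 6 in the knockout, beside 12.5% and 17.7% of all genes. Their median log2 changes were 1.74 and 1.91, beside 0.00 over all genes in both. Scube1, a secreted carrier of ligand, went from 1.32 to 7.65 CPM in controls and from 1.26 to 8.87 CPM in the knockout. Hhat, the enzyme that palmitoylates the ligands, went from 1.13 to 3.39 and from 1.16 to 3.44 CPM. Disp2, a homologue of the release protein Disp1, was the 1 gene of this group called between the genotypes, at 1.41 CPM in controls and 3.85 CPM in the knockout at day 3 (1.47 ± 0.40, adjusted p = 0.045). These genes were thus higher at day 3 than at day 2 in both genotypes, while Shh was at 0.171 CPM in the day 3 knockout.

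The coreceptors Cdon and Gas1, which bind ligand together with Ptch1, rose with time and were not called between the genotypes. In edgeR's test, Cdon had genotype differences of -0.28 ± 0.25, -0.47 ± 0.25 and 0.14 ± 0.24 at days 0, 2 and 3 (adjusted p from 0.30 to 0.82). Those of Gas1 were -0.70 ± 0.24, 0.11 ± 0.23 and 0.22 ± 0.23 (adjusted p from 0.22 to 0.82). Boc and Lrp2, 2 further coreceptors, were not called either, and the difference nearest the threshold was that of Boc at day 3 (0.98 ± 0.33, adjusted p = 0.092). From day 2 to day 3, Cdon went from 35.2 ± 1.0 to 69.3 ± 3.9 CPM in controls and from 25.2 ± 10.3 to 76.8 ± 16.0 CPM in the knockout. Gas1 went from 5.99 ± 1.63 to 21.7 ± 2.3 CPM and from 6.53 ± 1.79 to 26.2 ± 7.2 CPM, and both genes were called in both genotypes.

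Of 11 tested genes of the primary cilium, none was called at any day in the edgeR fit over all samples. At an unadjusted p below 0.05 there were 1, 1 and 2 at days 0, 2 and 3, beside 1945, 3738 and 4005 of all 18279 genes. DESeq2 called 0, 1 and 1. At day 3, edgeR called 1 without line 19 at day 2 and 1 with a replicate block. The median log2 difference over these 11 genes was 0.03, -0.24 and 0.10 at days 0, 2 and 3. Over 20 genes that carry the signal from Smo to Gli, the medians were 0.01, -0.18 and 0.05.

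Of 16 tested genes that Hedgehog signalling is known to induce in other tissues, 3 were called higher in the knockout at day 3, beside 2.74% of all genes called higher. They were Nkx2-9, a ventral neural homeobox factor (0.699 ± 0.278 against 5.02 ± 6.34 CPM, 2.40 ± 0.56), the cyclin gene Ccnd2 (84.6 ± 29.5 against 324 ± 197 CPM, 1.92 ± 0.46) and the forkhead factor Foxa1 (6.48 against 15.1 CPM, 1.26 ± 0.34), with adjusted p from 0.024 to 0.045. The knockout SD of Nkx2-9 was above its mean. Nkx2-9 lies on chromosome 12, which is labelled as extra in line 319. The part of extra chromosome copies was not tested for any of these 3 genes. At day 3 edgeR called 4 of the 16 without line 19 at day 2, when more of all genes were called as well. Foxa2 alone was called at day 0, lower in the knockout. At day 2 none was called by edgeR, with 4 at an unadjusted p below 0.05, beside 3738 of all genes, and 2 called by DESeq2. The median log2 difference over the 16 genes was 0.21, 0.21 and 0.49 at days 0, 2 and 3. These genes have other regulators, and this list is a description of levels, not of pathway activity.

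Cells of other kinds could contribute to the levels of these genes. The 14 fibroblast genes summed to 179 to 334 CPM in day 0 controls and 132 to 223 CPM in day 0 knockout samples. The sums were 190 to 217 and 157 to 227 CPM at day 2, and 348 to 404 and 252 to 389 CPM at day 3. Of the 13 tested, edgeR called Postn lower at days 2 and 3, beside 0.963% and 2.44% of all genes called lower, and none at day 0. Called or not, 1 of the 13 was higher and 12 lower at day 0. These numbers were 7 and 6 at day 2, and 6 and 7 at day 3. At an unadjusted p below 0.05 there were 4, 3 and 7 at days 0, 2 and 3, beside 1945, 3738 and 4005 of all 18279 genes. DESeq2 called 2, 2 and 5. Without line 19 at day 2, edgeR called 0, 1 and 5, with more of all genes called at day 3 as well. The 14 extraembryonic endoderm genes, a tissue that can express Ihh, summed to 120 to 166 CPM in day 0 controls and 135 to 195 CPM in the knockout. At day 3 they summed to 119 to 136 and 149 to 253 CPM, with 3 of 12 tested called higher (Pdgfra, Gata4 and Cubn) beside 2.74% of all genes. Without line 19 at day 2, edgeR called 6 of the 12 at day 3, when more of all genes were called as well, and DESeq2 called 5. Pdgfra was also called higher at day 2, and Ttr was at 0 counts in every day 0 sample. The part of these cells in the levels of the Hedgehog genes was not tested.

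Levels of the 9 genes were also compared across all 18 samples. On log2 CPM, Smo and Gli1 had a Pearson correlation of -0.91, Gli1 and Gli2 of 0.88, and Smo and Gli3 of 0.86. Shh and Dhh had -0.85, and Shh and Gli1 had -0.26. Ptch1 correlated with no other member beyond -0.37 (Shh), and Hhip with none beyond 0.39 (Gli2). Among 15470 genes, those most like Shh were Nat2, Camta2 and Rad51c (0.932, 0.929 and 0.923). The gene most like Smo was Cbx2 (0.987), that most like Gli3 was Met (0.973), and those most like Gli1 were Rmnd5b and Zfp42 (0.975 and 0.974). For Gli2 it was Esyt1 (0.916), for Hhip Adam12 (0.858), for Ihh Lzic (0.881) and for Dhh Dffb (0.884). For Ptch1 the closest gene, Galnt9, reached 0.772. These correlations describe samples that share lines, days and libraries.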

How the data were processed

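The deposited values are raw read counts per Ensembl transcript, 1 file for each of 4 technical libraries per sample. Per the labels, polyA+ RNA was made into stranded TruSeq libraries. The submitters' processing notes name bcl2fastq 2.17.1.14, STAR 2.4.0k, SAMtools, HTSeq and the build mm10. The annotation release and the strand setting of the counting are not given in the sources used here, so reads of overlapping genes may be shared. Of 110379 identifiers, 108309 matched GENCODE M21 (GRCm38), and the unmatched held 1.42% to 2.47% of a sample's counts and were left out. Transcripts of a gene share reads, so each gene was represented by its transcript with the highest total over the 72 files. The 4 technical files of a sample were added up after their chi-square per degree of freedom was found to be 1.01 to 1.03, which left 18 samples.

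Genes were tested with edgeR 4.0.16 (limma 3.58.1, R 4.3.3): TMM scaling, filterByExpr (18279 genes kept), a robust quasi-likelihood fit of 6 groups plus genetic background, 11 residual degrees of freedom, a common biological coefficient of variation of 0.246, and Benjamini-Hochberg adjustment over all genes. The script was tested on simulated data. CPM use TMM scaling, with SD over 3 samples. A fold against a group with at most 3 counts in every sample was computed with 3 counts in each and covers counting error only. The HM1 samples are labelled biological replicates, and nothing tells separate cultures from other sources of spread, so p-values measure the spread between these samples.

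All 9 members are named at every day. From each list, up to 4 called genes with the largest fold change and at least 1 CPM in the higher group could be named. The members and lists were chosen with earlier results of these data known. Samples of a series come from 1 line followed over 3 days, so their numbers pair them between days by origin; deviations from group means correlated above 0.1 in 16 of 18 pairs of days. Alternatives were DESeq2 1.42.0, RLE factors, 2 other filters, no background term, HM1-derived lines alone, the compared days alone, other ways to represent a gene, a replicate block, and leaving out series or line 19 at day 2. Promoters are from RefSeq (GRCm38.p6). Some results are not reported here.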

Additional observations from a re-analysis of the deposited data

How the results depend on the processing

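Of 1259 values for 75 results under 17 alternatives, 1161 kept their direction and their side of the threshold, 26 lost and 44 gained a call, and 28 changed sign, all of them values that were not called. The number of the 9 genes called between the genotypes at day 0 (0 in the fit reported) was 1 with DESeq2, with the compared days alone and with a replicate block, 2 without line 19 at day 2, and 0 to 1 when a series was left out. At day 2 (2 in that fit) it was 3 with DESeq2, 1 without a filter, without a background term, in HM1-derived lines alone, with transcripts added up, with the longest transcript and with the replicate block, 0 with the compared day alone, and 1 to 2 when a series was left out. At day 3 (1) it was 3 with DESeq2, 4 with the compared day alone and 4 without line 19 at day 2, 2 with the replicate block, and 0 to 3 when a series was left out. For controls from day 2 to day 3 (0) it was 0 to 1 when a series was left out. For the change of the genotype difference from day 2 to day 3 (0) it was 1 with DESeq2 and 0 to 1 with a series left out, and from day 0 to day 3 (0) it was 1 with DESeq2, RLE factors, no filter, the 1 CPM filter, the compared days alone, the longest transcript or without line 19 at day 2, and 0 to 1 with a series left out.

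With the replicate block, Shh at day 0 (adjusted p = 0.034) and Gli3 at day 3 (0.042) gained a call and Ptch1 at day 2 lost it (1.07, adjusted p = 0.054); the block changed no other call on these genes. The signs that turned were those of Ihh from day 2 to day 3 in controls (0.02 in HM1-derived lines, 0.13 with transcripts added up, -0.55 to 0.23 with a series left out) and of Dhh over that step in the knockout (-0.58 in HM1-derived lines, -0.01 with the compared days alone, -0.02 with the block, -0.58 to 0.31 with a series left out). Smo at day 0 was -0.21 in HM1-derived lines. Gli2 at day 2 was 0.18 without line 19, and Gli2 from day 2 to day 3 in the knockout was -0.07 in HM1-derived lines and -0.20 without line 19 at day 2. Leaving out a series gave these ranges: Ptch1 in controls to day 2, -0.05 to 0.16; the Ptch1 difference between days 0 and 3, -0.44 to 0.15; Smo at day 0, -0.19 to 0.32, and at day 2, -0.15 to 0.18. For Gli1 they were -0.55 to 0.06 at day 3 and -0.29 to 0.05 from day 2 to day 3 in the knockout. For Gli2 they were -0.60 to 0.18 at day 2, -0.08 to 0.25 at day 3, -0.35 to 0.02 from day 2 to day 3 in controls and -0.07 to 0.38 in the knockout. For the change of the Gli3 difference from day 0 to day 2 it was -0.03 to 0.39, and for Hhip at day 0, -0.52 to 0.03. The causes were not tested. Shh at day 2 kept its call in 16 of 17 alternatives and Ptch1 at day 2 in 6 of 17. With 0 to 17 counts of Shh per knockout sample, depth limits any statement on its level there.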
